A study of Mus musculus with 4 samples.

Results

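The insulin-like growth factor (IGF) binding proteins and IGF receptors were followed across 4 RNA sequencing libraries of MLE-12, a transformed line of mouse lung epithelium used as a model of the alveolar type 2 cell. The 8 genes were listed by name: the binding proteins Igfbp2, Igfbp3, Igfbp4, Igfbp5, Igfbp6 and Igfbp7 and the receptors Igf1r and Igf2r, out of 46078 genes in the count table. The libraries were Lingo1 KO cells sampled 24 hours after a scratch wound, Lingo1 KO cells left unscratched, WT cells sampled 24 hours after a scratch, and WT cells left unscratched. Each condition had 1 library, so none of the differences could be checked against replicates, and p-values are left out. Whether the KO cells were a single clone, and how the gene was edited, is not given in the sources used here. The genes were chosen by name with their levels and KO to WT differences in these 4 libraries known, so the values are a description.

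Binding proteins are secreted proteins that hold IGF1 and IGF2 with high affinity and so set how much ligand reaches the receptor. Igf1r encodes the receptor tyrosine kinase that carries the growth and survival signal to the cell. Igf2r encodes the mannose 6-phosphate receptor, which has no kinase, takes IGF2 up for degradation and sorts newly made hydrolases to lysosomes. In the lung, epithelial and mesenchymal cells both make binding proteins, and several of the proteins also bind matrix or cell surface partners apart from IGF.

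The KO-labelled libraries were not set apart by Lingo1 mRNA, which stood at 41.4 CPM (counts scaled to library size) in KO scratched and 41.2 CPM in KO unscratched cells, against 42.9 CPM in WT scratched and 46.4 CPM in WT unscratched cells. The KO to WT ratio was 0.966 after the scratch (0.899 to 1.04) and 0.889 without it (0.821 to 0.963), so KO is used throughout as the label of these libraries. Library totals lay between 26903429 and 48333801 counts, the highest in KO scratched cells. Of the epithelial markers, Cdh1, Krt8 and Krt19 were abundant and Epcam was at 5.28 to 5.47 CPM. Krt18, Cldn4 and Cldn7 were under 1 CPM. Of the 11 alveolar type 2 markers, 7 reached 1 CPM, while Sftpa1 and Sftpd had no reads in any library. The type 2 sum was 612 and 655 CPM in KO scratched and unscratched cells, against 509 and 554 CPM in WT scratched and unscratched cells. Of its members, the surfactant genes Sftpb and Sftpc were past 2-fold between the genotypes. Their KO to WT ratios were 4.09 and 3.09 after the scratch and 4.19 and 3.62 without it. Abca3, the most abundant of the list, was at 176 and 185 CPM in KO scratched and unscratched cells. In WT scratched and unscratched cells it was at 165 and 175 CPM. The log2 difference of Napsa, KO minus WT, was -0.67 after the scratch and -0.19 without it. For Nkx2-1 it was 0.04 and -0.25. Of the 11 fibroblast and mesenchyme markers, 5 reached 1 CPM. Their summed level was 3598 and 3857 CPM in KO scratched and unscratched cells and 3551 and 3588 CPM in WT scratched and unscratched cells. Decorin (Dcn) made up most of that sum, at 2481 and 2710 CPM in KO scratched and unscratched cells and 2819 and 2846 CPM in WT scratched and unscratched cells. Without it the other 10 markers summed to 1117 and 1147 CPM in KO scratched and unscratched cells, against 731 and 742 CPM in WT scratched and unscratched cells, and most of this was Vim. Col1a1 was at 177 and 197 CPM in KO scratched and unscratched cells, against 16.5 and 21.3 CPM in WT scratched and unscratched cells. Pdgfrb had 135 and 67 counts in KO scratched and unscratched cells, against 1 and 0 in WT scratched and unscratched cells. Col1a1, Pdgfrb, Sftpb and Sftpc were thus higher in both KO libraries, as were Igfbp2 and Igfbp4, while Dcn and Napsa were lower in both. Col1a2 was at 0 in all libraries but KO unscratched, which had 1 count. The summed smooth muscle and pericyte markers stayed between 3.62 and 3.99 CPM and the leukocyte markers between 1.82 and 2.15 CPM, with Ptprc at 0 throughout. The endothelial sum of 180 to 220 CPM was nearly all Tek, with Cdh5 and Emcn at 0. The part of any marker in the results below was not tested. In bulk RNA, fewer cells of a kind and less RNA per cell cannot be told apart.

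The genes that differed most between the genotypes were Igfbp2, Igfbp4 and Igfbp3. The 250 bases before their annotated starts are shown because Igfbp2 and Igfbp4 were higher in both KO-labelled libraries and Igfbp3 was lower. The sequences come from the RefSeq promoter table for GRCm38.p6, the assembly behind mm10, in which all 8 genes were found. They lie at chr1:72824230-72824479 on the plus strand (Igfbp2, the upstream of its 2 listed starts), chr11:99040994-99041243 on the plus strand (Igfbp4) and chr11:7213924-7214173 on the minus strand (Igfbp3). Each is written 5′ to 3′ on the gene's strand, and capitals mark matches to the 6 motifs searched.
Igfbp2: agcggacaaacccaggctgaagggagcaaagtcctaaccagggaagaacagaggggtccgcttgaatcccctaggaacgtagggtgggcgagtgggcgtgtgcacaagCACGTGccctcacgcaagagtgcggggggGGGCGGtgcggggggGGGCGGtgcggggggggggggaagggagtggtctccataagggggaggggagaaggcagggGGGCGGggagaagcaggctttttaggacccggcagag
Igfbp4: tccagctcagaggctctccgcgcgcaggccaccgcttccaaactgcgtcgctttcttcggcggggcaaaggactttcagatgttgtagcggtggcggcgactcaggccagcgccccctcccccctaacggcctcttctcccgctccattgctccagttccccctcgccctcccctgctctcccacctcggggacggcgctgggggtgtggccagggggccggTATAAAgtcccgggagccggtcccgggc
Igfbp3: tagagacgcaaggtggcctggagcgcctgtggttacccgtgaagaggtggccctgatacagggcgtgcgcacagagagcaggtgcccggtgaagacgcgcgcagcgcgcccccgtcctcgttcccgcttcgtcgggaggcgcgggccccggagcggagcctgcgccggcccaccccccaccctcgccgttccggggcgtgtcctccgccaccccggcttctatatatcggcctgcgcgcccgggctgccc

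The motifs, searched on both strands, were the GC box GGGCGG bound by Sp1, the E box CACGTG, the TATA box TATAAA, the AP-1 site TGANTCA, the TEAD site CATTCC and the FOXO site GTAAACA. In the Igfbp2 window, 3 GC boxes and 1 E box were found, the nearest GC box starting 37 bases before the start. The Igfbp4 window held a TATA box that began 28 bases before the start. The Igfbp3 window held none of the 6 as spelled here, although the letters tatatat lie near its end. Only these exact spellings were searched, so other forms of a TATA box would be missed. Among 32851 windows of the same length in the promoter table, 32.7% held a GC box, 6.02% the E box, 12.4% the TATA box, 6.75% the AP-1 site, 12.6% the TEAD site and 3.17% the FOXO site. The 3 windows shared a high content of G and C, at 67.2% for Igfbp2, 69.2% for Igfbp4 and 73.2% for Igfbp3, against a median of 52.4% over the table. This did not set them apart from the other members. Igf1r was at 77.6%, Igfbp7 at 74.0%, Igf2r at 69.2%, Igfbp5 at 58.8% and Igfbp6 at 49.6%. GC boxes also lay in the windows of Igf1r, Igf2r and Igfbp7, an E box in that of Igf2r and a TATA box in that of Igfbp6. The window of the other listed Igfbp2 start, at 56.4%, held an AP-1 site and no GC box. These matches describe the letters only.

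Igfbp6 was by far the most abundant binding protein mRNA, and Igfbp7 was at the limit of detection. Levels of different genes are compared here in RPKM, the authors' read number scaled by gene length and library size. Igfbp6, which encodes the binding protein with a marked preference for IGF2, was at 164 RPKM in KO scratched, 165 in KO unscratched, 168 in WT scratched and 196 in WT unscratched cells. These values put it among the 299 most abundant of the genes in the RPKM table in every library, at rank 207 in WT unscratched cells. It supplied 93.1% and 92.9% of the summed RPKM of the 5 measured binding proteins in KO scratched and unscratched cells and 93.9% and 94.6% in WT scratched and unscratched cells. That sum was 176 and 178 RPKM in KO scratched and unscratched cells, and 179 and 207 RPKM in WT scratched and unscratched cells.

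The receptors stood next in line. Igf2r was at 13.7 and 15.6 RPKM in KO scratched and unscratched cells, and 13.3 and 13.7 RPKM in WT scratched and unscratched cells. Igf1r was at 7.37 and 8.22 RPKM in the KO libraries and 5.66 and 6.57 RPKM in the WT libraries, in the same order. The ratio of Igf2r to Igf1r in RPKM was 1.87 and 1.90 in KO scratched and unscratched cells, against 2.35 and 2.09 in WT scratched and unscratched cells. Igf2r was the higher of the receptor mRNAs in every library. The summed binding protein RPKM was 23.9 and 21.6 times that of Igf1r in KO scratched and unscratched cells. In both WT libraries it was 31.5 times. The ratios to Igf1r depend on the gene length used, and would be larger with GENCODE exon lengths. With those, Igf1r was at 5.03 and 5.58 CPM per kilobase in KO scratched and unscratched cells. In WT scratched and unscratched cells it was at 3.85 and 4.44 CPM per kilobase.

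In both KO libraries Igfbp2, Igfbp3, Igfbp4 and Igfbp5 lay close together, at 2.53 to 3.53 RPKM. Neighbours in the order of RPKM had overlapping counting intervals, but the ends of that order were apart. In KO scratched cells Igfbp4 was at 2.31 to 2.78 RPKM, below Igfbp3 (3.07 to 3.74) and Igfbp5 (3.01 to 3.43). In KO unscratched cells it was at 2.52 to 3.14 RPKM, below Igfbp5 (3.26 to 3.81). In WT cells they were spread out, with Igfbp3 at 6.69 and 6.98 RPKM, Igfbp5 at 2.95 and 2.99 RPKM, Igfbp4 at 0.795 and 0.619 RPKM and Igfbp2 at 0.493 and 0.652 RPKM in scratched and unscratched cells. The intervals of Igfbp2 and Igfbp4 overlapped in every library. In WT unscratched cells those of Igfbp3 and Igf1r overlapped as well, at 6.36 to 7.65 RPKM for Igfbp3 and 6.28 to 6.86 RPKM for Igf1r. The order within the lowest genes depends on gene length. With GENCODE exon lengths Igfbp4 ranked above Igfbp2 in all 4 libraries, and Igfbp5 above Igfbp3 in both KO libraries.

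The make-up of the binding protein mRNA other than Igfbp6 differed between the genotypes. Igfbp3 made up 27.8% and 26.5% of this remainder in KO scratched and unscratched cells, against 61.2% and 62.1% in WT scratched and unscratched cells. Igfbp2 and Igfbp4 supplied 25.05% and 20.8% in KO scratched and 22.9% and 22.5% in KO unscratched cells. In WT cells they supplied 4.52% and 7.28% after the scratch and 5.803% and 5.51% without it. Igfbp5 stayed at 26.3% and 28.1% in the KO libraries and 27.0% and 26.6% in the WT libraries. The remainder as a whole was 12.2 and 12.5 RPKM in KO scratched and unscratched cells and 10.9 and 11.2 RPKM in WT scratched and unscratched cells. The mixture therefore differed by far more than its sum. The nearly even KO shares rest on the lengths behind the RPKM values. With GENCODE exon lengths Igfbp5 was at 3.23 and 3.52 CPM per kilobase in KO scratched and unscratched cells. Igfbp3 was then at 2.63 and 2.57 and Igfbp2 at 2.17 and 2.03 CPM per kilobase. In WT scratched and unscratched cells Igfbp3 stayed the highest of these genes, at 5.18 and 5.37 CPM per kilobase.

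**Figure D1:**
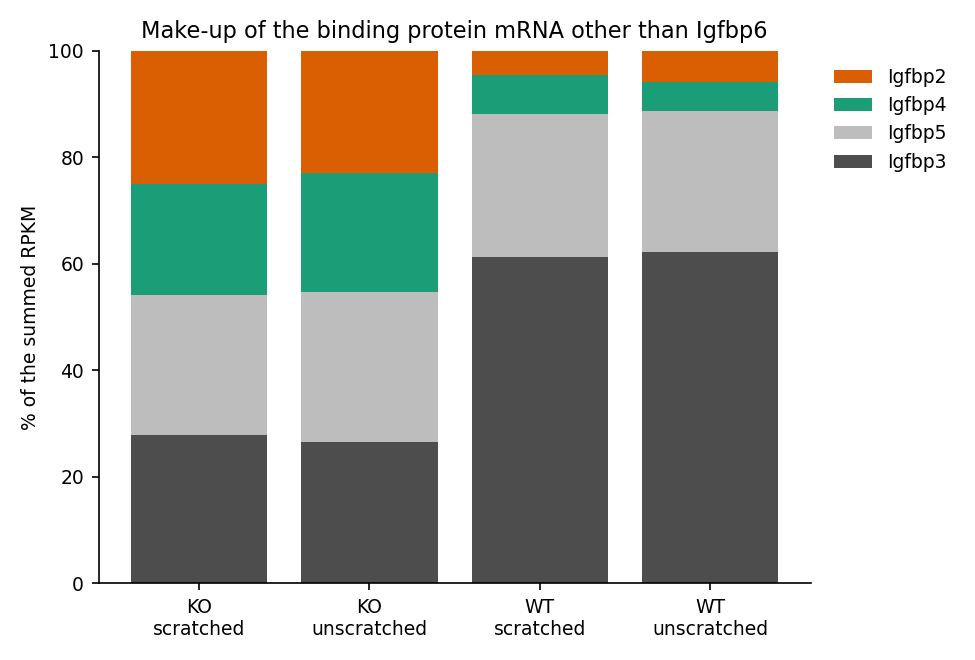
Bars give the share of each binding protein in the summed RPKM of Igfbp2, Igfbp3, Igfbp4 and Igfbp5, in percent, in each of the 4 libraries (1 library per bar, no error). Igfbp3 takes 61.2% and 62.1% in the WT bars, whereas in the KO bars no gene takes more than 28.1%. The shares depend on the gene lengths behind the RPKM values.

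Igfbp2, a binding protein that carries an integrin-binding motif and is made by alveolar epithelium, was higher in both KO-labelled libraries. The gene (ENSMUSG00000039323, chr1:72824503-72852474, plus strand, mm10) had 192 counts or 4.01 CPM in KO scratched and 111 counts or 3.75 CPM in KO unscratched cells, against 18 counts or 0.645 CPM in WT scratched and 23 counts or 0.849 CPM in WT unscratched cells. The KO values lay above both WT values, and the counting intervals of the genotypes did not overlap. The KO to WT ratio was 6.21 after the scratch (95% interval 3.83 to 10.7) and 4.42 without it (2.80 to 7.26). Intervals here cover counting error only, and since no molecular identifiers are mentioned in the labels they may be too narrow. Igfbp2 was tested only because of its KO level, as both WT libraries were under the minimum of 1 CPM.

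Igfbp4, which encodes an inhibitory binding protein that is cut by the protease PAPP-A, was higher in the KO-labelled libraries too. The gene (ENSMUSG00000017493, chr11:99041244-99054392, plus strand) was at 9.75 and 10.8 CPM in KO scratched and unscratched cells, against 3.05 and 2.36 CPM in WT scratched and unscratched cells. The groups did not overlap. The ratio was 3.20 after the scratch (2.53 to 4.08) and 4.57 without it (3.48 to 6.07), from 64 to 467 counts per library. The part of the surfactant and mesenchymal markers given above in the differences of Igfbp2 and Igfbp4 was not tested.

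Igfbp3, which encodes the main carrier of IGF in serum and a target of TGF-beta, p53 and YAP in several cell types, was lower in the KO-labelled libraries. The gene (ENSMUSG00000020427, chr11:7206086-7213923, minus strand) was at 8.25 and 8.04 CPM in KO scratched and unscratched cells, against 16.2 and 16.8 CPM in WT scratched and unscratched cells. Both KO values lay below both WT values, and the counting intervals did not overlap. The KO to WT ratio was 0.509 after the scratch (0.444 to 0.584) and 0.478 without it (0.407 to 0.560).

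The differences were set beside those of all 12348 tested genes. The rule for a 2-fold call asked for a log2 difference of 1 or more in either direction, with a ratio interval that left out 1. Igfbp2 and Igfbp4 met this in both comparisons, where 1.47% of the tested genes were higher after the scratch and 1.36% without it, and 0.907% were higher in both (0.219% were lower in both). Igfbp3 met it without the scratch, where 0.883% of genes were lower, but was at -0.97 on the log2 scale after it, just inside the limit (0.429% of genes were lower there). With a 1.5-fold rule Igfbp3 was lower in both comparisons, as were 0.988% of the tested genes, while 2.14% were higher in both. Since the genes were chosen with these contrasts known, the shares are given as background and nothing is read from them. By size of log2 difference, 0.259% of tested genes differed at least as much as Igfbp2 and 0.696% as much as Igfbp4 after the scratch, and 0.324% and 0.292% without it. For Igfbp3 the share was 2.03% after the scratch and 1.91% without it.

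**Figure D2:**
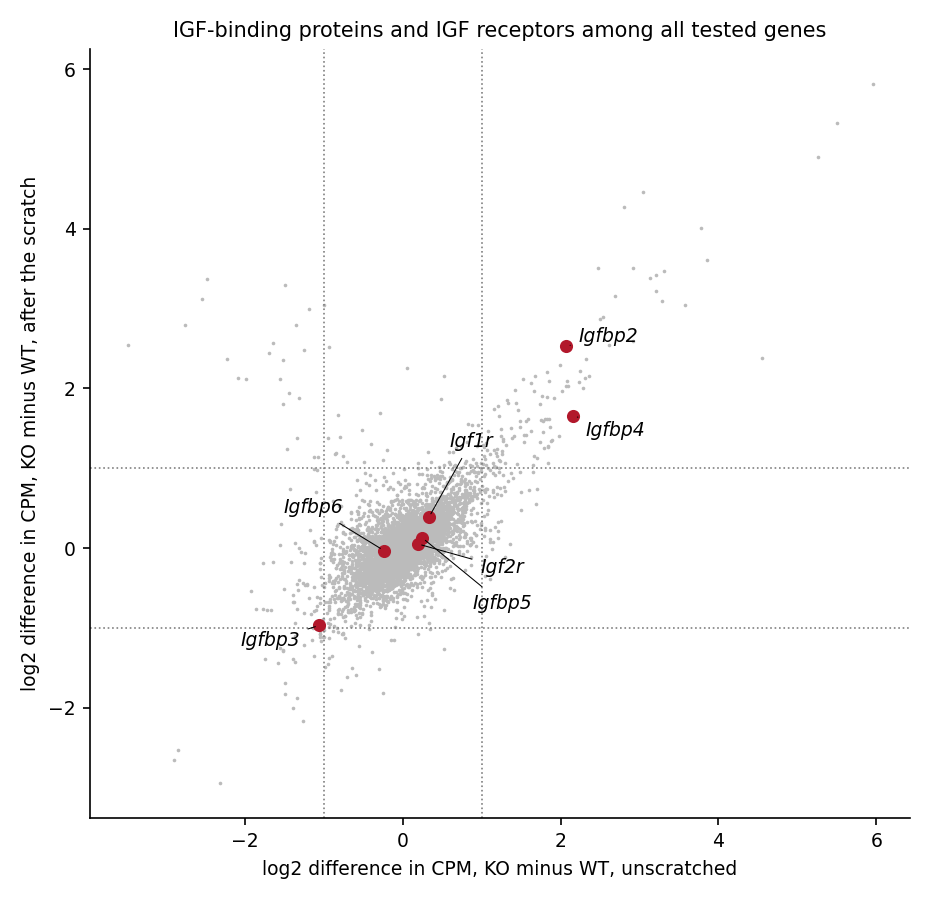
Each grey point is a tested gene placed by its log2 difference in CPM, KO minus WT, without the scratch (horizontal) and after it (vertical), and red points are the 7 tested genes of the IGF group, with dotted lines at a log2 difference of 1 in size. Igfbp2 (2.07 and 2.53) and Igfbp4 (2.16 and 1.66) lie in the upper right, Igfbp3 (-1.06 and -0.97) at the lower left, and the other 4 within the bulk.

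Igfbp5, Igfbp6 and the receptors differed by far smaller ratios between the genotypes. Igfbp5, which encodes a binding protein with affinity for matrix, was at 19.4 and 21.2 CPM in KO scratched and unscratched cells, against 17.7 and 17.9 CPM in WT scratched and unscratched cells. Its KO to WT ratio was 1.09 after the scratch (0.980 to 1.22) and 1.18 without it (1.05 to 1.34). After the scratch the interval held 1, so no difference was detectable at this depth.

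Igfbp6 was at 183 CPM in both KO libraries, against 187 CPM in WT scratched and 217 CPM in WT unscratched cells. The WT unscratched library alone stood above the other 3. The KO to WT ratio was 0.978 after the scratch (0.945 to 1.01) and 0.847 without it (0.816 to 0.879).

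Igf1r (ENSMUSG00000005533, chr7:67952827-68233668) was higher in both KO-labelled libraries, at 84.4 and 93.7 CPM in KO scratched and unscratched cells, against 64.7 and 74.6 CPM in WT scratched and unscratched cells. The KO values lay above both WT values. The ratio was 1.30 after the scratch (1.23 to 1.38) and 1.26 without it (1.19 to 1.33), and 11.7% and 19.6% of the tested genes differed at least as much. Igf2r (ENSMUSG00000023830, chr17:12682406-12769664) was at 123 and 138 CPM in KO scratched and unscratched cells, against 118 and 122 CPM in WT scratched and unscratched cells. Its ratio was 1.04 after the scratch (0.993 to 1.08) and 1.14 without it (1.09 to 1.19). Over all tested genes, of any depth, such intervals left out 1 for 47.6% after the scratch and 51.0% without it. These intervals cover counting error only, and variation between cultures was not measured.

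Igfbp7, which encodes a binding protein of low IGF affinity found mainly in vessels and matrix, had 0 counts in KO scratched, 1 in KO unscratched, 2 in WT scratched and 0 in WT unscratched cells. A count of 0 allows up to 3 counts, which is 0.0626 CPM in KO scratched and 0.111 CPM in WT unscratched cells. No fold is given, as every library was below 3 counts.

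**Figure D3:**
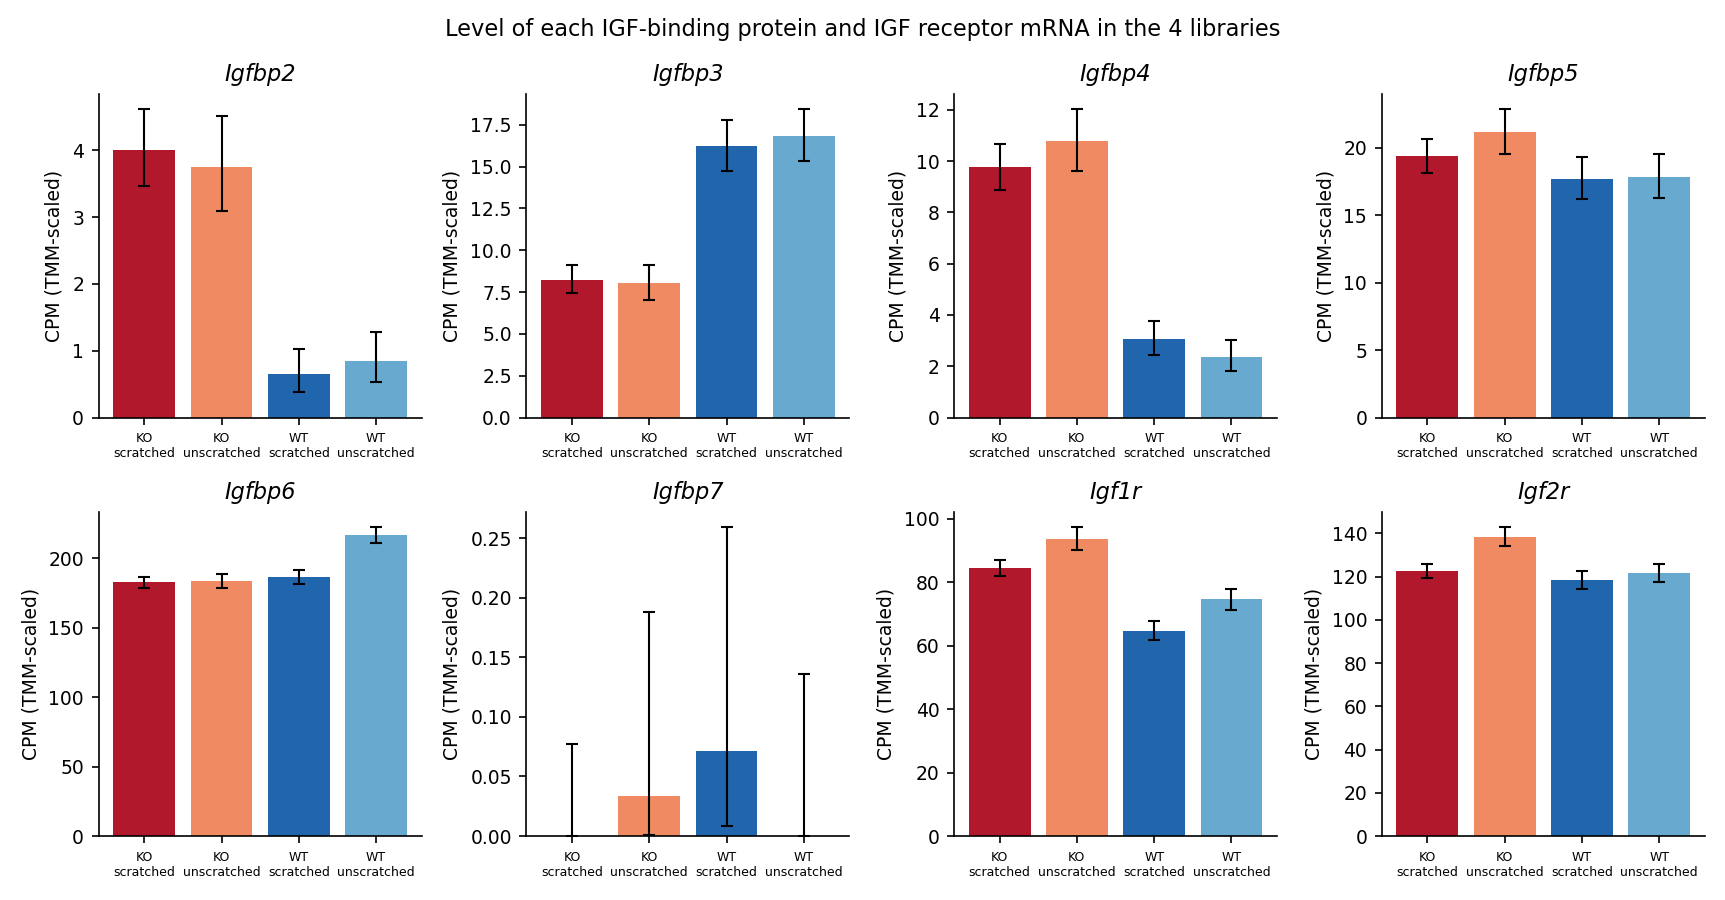
Bars give the CPM of each gene in the 4 libraries, with 95% exact counting intervals (1 library per bar), on a separate axis from 0 for each gene. Igfbp2 and Igfbp4 are higher and Igfbp3 lower in both KO bars, Igf1r is higher in both KO bars, and Igfbp7 rests on at most 2 counts.

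After the scratch, none of the 7 tested genes differed by 2-fold from its unscratched level in either genotype. The ratios lay between 0.886 and 1.07 in KO cells and between 0.760 and 1.29 in WT cells. At least 2-fold differences were rare among all genes as well, at 0.17% higher and 0.0972% lower in KO cells, and 0.121% higher and 0.737% lower in WT cells. With the 1.5-fold rule the 7 genes again gave no call, against 0.526% of genes higher and 0.696% lower in KO cells, and 0.526% higher and 1.85% lower in WT cells. Igf1r was lower after the scratch in both genotypes, at 0.901 times its unscratched level in KO cells (0.858 to 0.946) and 0.867 times in WT cells (0.814 to 0.925). In KO cells 24.9% of the tested genes differed at least as much as Igf1r, and in WT cells 23.4%. Igf2r stood at 0.886 times in KO cells (0.851 to 0.922) and 0.973 times in WT cells (0.927 to 1.02). Igfbp6 stood at 0.996 times in KO cells (0.962 to 1.03) and 0.862 times in WT cells (0.830 to 0.895).

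Igfbp2, Igfbp3, Igfbp4 and Igfbp5 had scratch ratios whose intervals held 1 in both genotypes. For Igfbp2 the interval in WT cells ran from 0.387 to 1.47, from 18 and 23 counts, so a change of that size would not have been detectable. For Igfbp3, with more reads, it ran from 0.871 to 1.21 in KO cells and from 0.844 to 1.10 in WT cells.

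The scratch responses of the genotypes, KO minus WT on the log2 scale, differed by 0.21 for Igfbp6 (0.13 to 0.28), -0.14 for Igf2r (-0.23 to -0.04) and -0.51 for Igfbp4 (-1.02 to -0.0018). The interval of Igfbp4 ended next to 0, so its difference is not firm. These differences used no prior count and were not recomputed under other settings. The intervals of Igfbp2, Igfbp3, Igfbp5 and Igf1r held 0. Over 12343 tested genes with reads in every library, 26.8% of the intervals left out 0. The WT unscratched library enters both the unscratched genotype ratio and the WT scratch ratio. For Igfbp6 the ratios of 0.847 and 0.862 thus rest on the same value of 217 CPM. Likewise, the KO unscratched library enters the unscratched genotype ratio and the KO scratch ratio. For Igf2r the ratios of 1.14 and 0.886 rest on its value of 138 CPM, the highest of the 4 libraries.

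**Figure D4:**
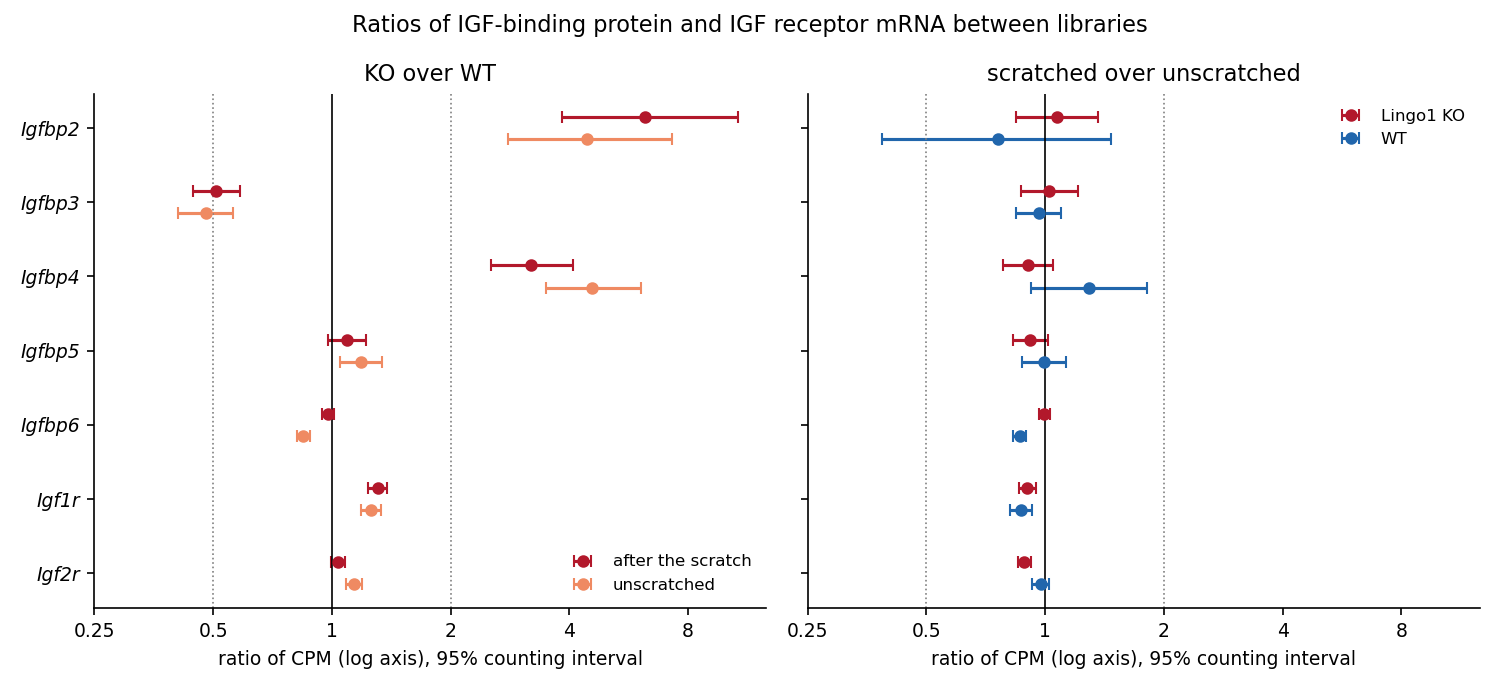
Points are ratios of CPM with 95% counting intervals on a log axis, KO over WT on the left and scratched over unscratched on the right, with dotted lines at 2-fold. The ratios of Igfbp2, Igfbp4 and Igfbp3 stand away from 1 on the left, while the ratios on the right lie between 0.760 and 1.29.

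Of the nearest tested neighbours of Igfbp2, Igfbp3 and Igfbp4, Tns4 alone was past 2-fold between the genotypes. Igfbp2 and Igfbp5 lie tail to tail, 5458 bases apart, and Igfbp5 had KO to WT ratios of 1.09 and 1.18 beside the 6.21 and 4.42 of Igfbp2. Adcy1, the nearest tested gene before Igfbp3, was at ratios of 0.976 after the scratch and 1.01 without it. Igfbp1, the partner of Igfbp3 in a like pair 3540 bases away, had no reads in any library. Tns4, a tensin gene 11286 bases after Igfbp4, was at 5.14 and 4.33 CPM in KO scratched and unscratched cells, against 2.19 and 1.77 CPM in WT scratched and unscratched cells. Top2a, on the other side of Igfbp4, had ratios of 1.04 and 1.15. Igf2r is overlapped on the opposite strand by Airn, the noncoding RNA that silences the paternal Igf2r allele in mouse, although the annotated exons share no base. Airn was at 3.70 and 5.64 CPM in KO scratched and unscratched cells and 5.27 and 5.61 CPM in WT scratched and unscratched cells.

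The genes whose pattern over the 4 libraries was most like that of each gene spanning at least 1 on the log2 scale were found by Euclidean distance of centred log2 CPM among 9291 genes of at least 10 CPM on average. The distance is a description over 4 libraries. For Igfbp2 these were the surfactant gene Sftpb (distance 0.35), the phospholipase gene Plcb1 (0.39) and the NAD synthesis gene Nmnat2 (0.40). For Igfbp4 they were the surfactant gene Sftpc (0.23), the troponin gene Tnnt2 (0.27) and Plcb1 (0.28). Sftpc was at 19.8 and 20.6 CPM in KO scratched and unscratched cells, against 6.42 and 5.68 CPM in WT scratched and unscratched cells. For Igfbp3 they were Dock3 (0.06), the dystrophin gene Dmd (0.10) and the semaphorin gene Sema3d (0.11). Dock3 was at 7.60 and 7.87 CPM in KO scratched and unscratched cells, against 15.5 and 15.8 CPM in WT scratched and unscratched cells.

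The ligands were all but absent from these cells. Igf1 had 2 counts in KO scratched, 8 in KO unscratched and 1 in each WT library. Igf2 had 3 counts in KO unscratched cells and 0 in the other libraries, and the insulin genes Ins1 and Ins2 had none anywhere. The insulin receptor Insr was at 88.1 and 102 CPM in KO scratched and unscratched cells, against 76.3 and 86.4 CPM in WT scratched and unscratched cells. Its KO to WT ratio was 1.15 after the scratch (1.10 to 1.22) and 1.19 without it (1.12 to 1.25). Insr and Igf1r, whose proteins can pair into hybrid receptors, were thus each higher in both KO libraries and each lower after the scratch in both genotypes. The Insr scratch ratio was 0.860 in KO cells (0.820 to 0.901) and 0.883 in WT cells (0.832 to 0.937). Intervals that leave out 1 were common among all tested genes. For the scratch they made up 32.0% in KO cells and 37.2% in WT cells. Between the genotypes they made up 47.6% after the scratch and 51.0% without it. Nothing is therefore read from the shared direction of Insr and Igf1r.

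Beyond the 8 genes, 172 genes of 10 lists around the pathway were examined, of which 142 were tested and 30 stayed under 1 CPM in every library. None of the 142 was at least 2-fold higher or lower in any of the 4 comparisons. With the 1.5-fold rule, 3 were higher and 2 lower in KO after the scratch (2.11% and 1.41%, against 3.42% and 1.83% of all tested genes), and 7 higher and 4 lower without it (4.93% and 2.82%, against 3.48% and 2.94%). The median log2 difference of the 142 was -0.04 after the scratch and -0.03 without it, beside 0.00 and 0.01 over all tested genes.

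Among relatives and modifiers of binding proteins, Ccn4 and Htra3 were higher in both KO comparisons. Ccn4, a secreted protein with an IGF-binding-protein-like domain, was at 189 and 210 CPM in KO scratched and unscratched cells, against 121 and 120 CPM in WT scratched and unscratched cells. Htra3, a serine protease with such a domain, had ratios of 1.62 and 1.73. Of the proteases that cut binding proteins and their inhibitors, 9 of 18 were tested. Mmp2, which cleaves several binding proteins, was lower in KO, at 9.16 and 8.82 CPM in KO scratched and unscratched cells against 14.0 and 15.5 CPM in WT scratched and unscratched cells. Plat had a ratio of 0.661 after the scratch. The PAPP-A genes Pappa and Pappa2 had no reads. Stc2, a stanniocalcin that inhibits PAPP-A, had KO to WT ratios of 1.02 after the scratch and 1.73 without it.

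Of 61 genes for adaptors and signalling proteins downstream of the receptors, 57 were tested. Their median log2 difference in mRNA was -0.01 after the scratch and -0.04 without it, with members on both sides of 0. With the 1.5-fold rule 1 was higher and 2 were lower without the scratch, where 3.48% and 2.94% of all tested genes were, and none after it. Without the scratch, Grb14, an adaptor that inhibits the insulin receptor, was past 1.5-fold higher (ratio 1.51, 1.18 to 1.95). Foxo6 and the cytokine signalling suppressor Socs3 were past 1.5-fold lower, at 0.644 (0.614 to 0.675) and 0.664 (0.619 to 0.712). After the scratch the ratios of Grb14, Foxo6 and Socs3 were 1.40, 0.802 and 0.771. Pik3r3, a regulatory subunit of phosphoinositide 3-kinase, then differed most, with a KO to WT ratio of 0.678 (0.608 to 0.756).

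The mannose 6-phosphate sorting genes that work with Igf2r were tested in full, 17 of 17. Their median log2 difference was -0.04 after the scratch and -0.10 without it, and Gnptg, a subunit of the enzyme that starts the mannose 6-phosphate tag, had the largest after the scratch at -0.35. Nagpa, which encodes the enzyme that uncovers the tag, had the largest without it at -0.29. All 30 hydrolases that carry the tag were tested too, with medians of -0.08 and -0.03. The protease Ctsh alone was past 1.5-fold, at 88.8 and 94.1 CPM in KO scratched and unscratched cells against 58.1 and 51.3 CPM in WT scratched and unscratched cells.

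The 3 mRNA-binding proteins that were named for binding Igf2 transcripts were tested, and their median log2 difference was 0.30 after the scratch and 0.42 without it. Igf2bp2 was at 70.0 and 77.6 CPM in KO scratched and unscratched cells, against 54.9 and 57.7 CPM in WT scratched and unscratched cells. Of 19 cell surface and matrix partners of binding proteins, 16 were tested. The hyaluronan receptor Cd44 had ratios of 1.47 and 1.58 after and without the scratch and alone passed 1.5-fold, without the scratch. Of the imprinted transcripts, Airn and Plagl1 were tested. Plagl1, a zinc finger regulator of Igf2, stood at 2.28 and 2.20 CPM in KO scratched and unscratched cells and 2.01 and 3.69 CPM in WT scratched and unscratched cells.

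**Figure D5:**
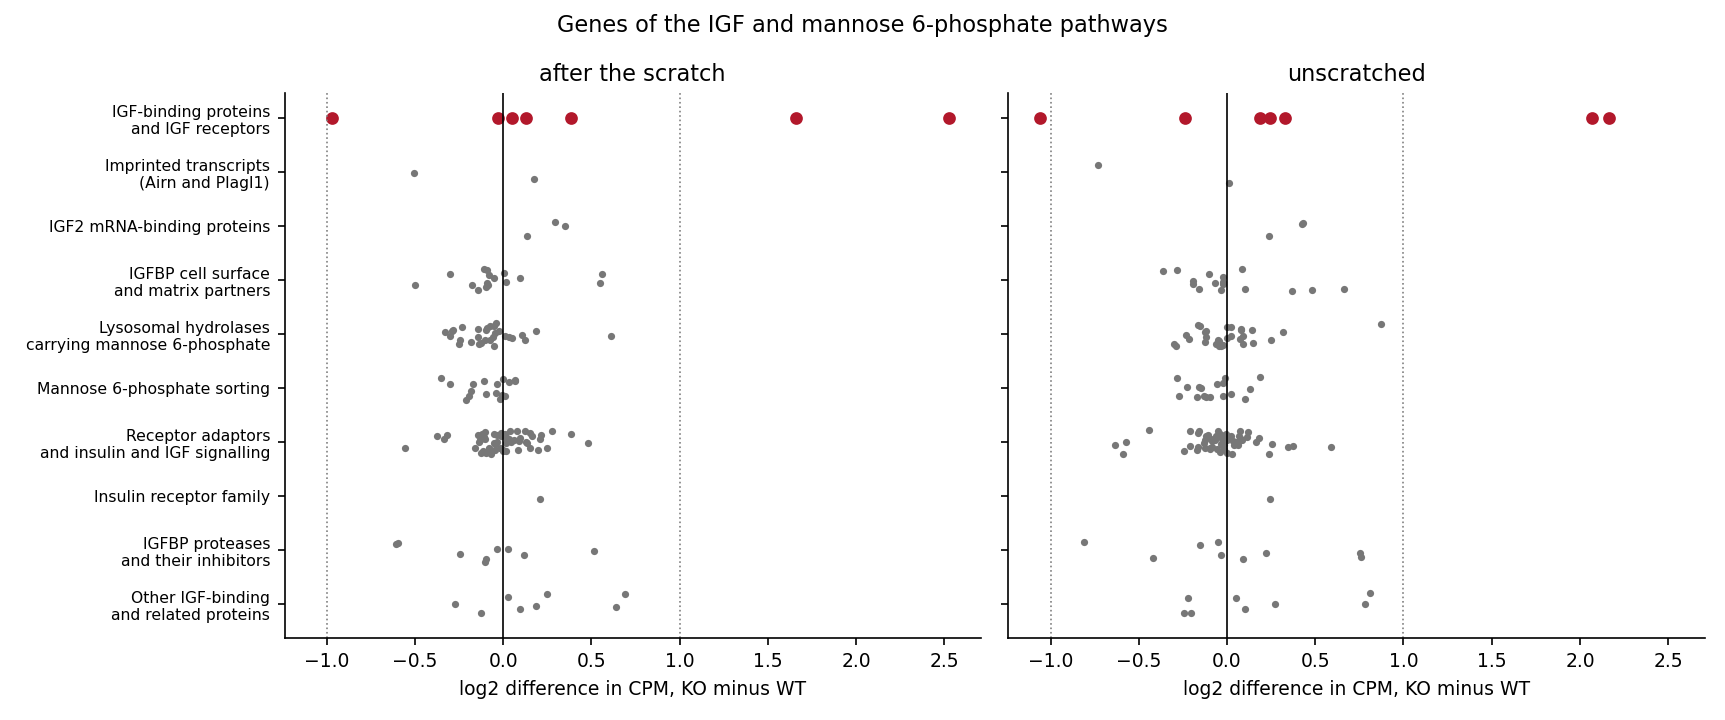
Points are log2 differences in CPM, KO minus WT, after the scratch (left) and without it (right), for the tested genes of each list (grey) and the 7 tested IGF-binding protein and receptor genes (red), with dotted lines at 1 in size. All grey points lie between the dotted lines, and the red points outside them are Igfbp2 and Igfbp4 and, without the scratch, Igfbp3.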

How the data were processed

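Libraries came from a stranded mRNA kit, per the labels' protocols, with 1 library per condition. The authors deposited raw read counts for 46078 Ensembl genes and RPKM for 14844 of them (161 lack values). Per the submitters' processing notes, which give no roles, the tools were STAR 2.7.9a, Trimmomatic 0.39, edgeR 3.32.1 and HTSeq 0.11.3, and the build was mm10. Neither strand setting nor annotation release was found in the labels, so reads of genes that overlap on opposite strands are uncertain (Igfbp7 shares 85 exon bases with Polr2b, Igf2r overlaps Airn). Gene lengths implied by the RPKM values were shorter than GENCODE exon lengths for some genes, such as 11415 against 16791 bases for Igf1r. Table columns carry the genotype and S (scratched) or N. N was read as unscratched, a reading on which all scratch comparisons depend.

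Counts were scaled with TMM factors (edgeR 4.0.16, R 4.3.3) of 0.991 to 1.007. The 12348 genes with at least 1 CPM in at least 1 library were tested, meaning that folds were computed for them, and 7 of the 8 members were among them. Folds are ratios of CPM with exact 95% Clopper-Pearson intervals on the split of counts. Log2 differences used a prior count of 2. The differences of scratch responses between the genotypes used none. Their 95% intervals are a normal approximation from the counts of the 4 libraries. Intervals, calls and medians were computed in Python 3.11.15 with numpy 2.4.6, pandas 2.3.3 and scipy 1.17.1, and figures with matplotlib 3.10.9. The fold rule was tested on simulated data with planted changes and counting error only. That simulation holds no variation between cultures, so it does not cover this error in the calls. Positions come from a GENCODE annotation of the same build. Names were taken from the RPKM table or a reference list, which held 45143 of the identifiers.

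The members, the lists and the rules were chosen with earlier results of these data known. Named genes are every member, the gene with the largest difference in each list, ligands and receptors, nearest patterns and, chosen after their values were seen, nearest neighbours and list genes past 1.5-fold. Values of 1 list gene are not reported here. Alternatives were total counts, DESeq2 1.42.0 size factors, a prior count of 0.5, a 1.5-fold rule, the RPKM values with a pseudocount of 0.1 and no filter on low counts.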

Additional observations from a re-analysis of the deposited data

How the results depend on the processing

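The counts of binding protein and receptor genes at least 2-fold different (2 after the scratch and 3 without it between KO and WT, 0 and 0 for the scratch) were the same with total counts, DESeq2 size factors, a prior count of 0.5, the RPKM values and no filter on low counts. With the 1.5-fold rule Igfbp3 joined after the scratch, making 3. The log2 differences of the 7 genes stayed within their counting intervals in all 112 recomputed values. As every setting started from the same counts with similar scaling, these values had little room to come out otherwise. The summed binding protein level changed little in all 8, but this check could hardly have come out otherwise. Some of the 8 used lengths implied by the same RPKM values. Igfbp6, most of the sum, has 1112 exon bases in GENCODE and 1113 implied by the RPKM values. The counts over all genes depended on the rule. In the order KO against WT unscratched, KO against WT scratched, scratched against unscratched in KO and in WT, they were 277, 234, 33 and 106. With the 1.5-fold rule they were 793, 648, 151 and 294, and with no filter on low counts 611, 535, 226 and 263. With the RPKM values they were 189, 155, 15 and 70, and the cause was not tested. Of 36 list medians, 2 changed sign with another scaling, both in the KO scratch comparison and within 0.02 of 0 (signalling genes and mannose 6-phosphate sorting genes). The list medians under other scalings and the GENCODE lengths were chosen after seeing the data. No paired analysis was possible because the values are ratios of single libraries with no test, and the labels give no replicate numbers. An additive fit of genotype and scratch over the 4 libraries was not run. Each ratio rests on 2 libraries, so leaving out a library ends the comparisons it enters and leaves the others as they are. Depth limits Igfbp2, at 18 and 23 counts in the WT libraries, and Igfbp7, at no more than 2 counts.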

Other observations

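Hmga2, a chromatin protein gene that regulates Igf2bp2 in several tissues and was listed beside the imprinted transcripts near Igf2, stayed under 1 CPM in every library and was therefore not tested. It had 21 counts in KO scratched and 14 in KO unscratched cells, against 2 in WT scratched and 1 in WT unscratched cells. The KO to WT ratio was 6.12 after the scratch (95% counting interval 1.49 to 53.8) and 12.8 without it (1.95 to 542). The gene was singled out after its values were seen.

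The receptor binding partner Lrp1, which takes up Igfbp3 among many ligands, was at 280 and 376 CPM in KO scratched and unscratched cells, against 191 and 269 CPM in WT scratched and unscratched cells. Its KO to WT ratio was 1.46 after the scratch (1.42 to 1.51) and 1.39 without it (1.35 to 1.44). After the scratch it stood at 0.746 times its unscratched level in KO cells (0.727 to 0.765) and 0.710 times in WT cells (0.685 to 0.736). Eif4ebp1, the translation repressor that mTOR inactivates, stood at 1.43 times its unscratched level in KO cells (1.32 to 1.54) and 1.39 times in WT cells (1.26 to 1.53). Both genes were named after their values were seen.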
